A study of Arabidopsis thaliana with 8 samples.

Results

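The lambda glutathione transferases of Arabidopsis thaliana are GSTL1 (AT5G02780), GSTL2 (AT3G55040) and GSTL3 (AT5G02790). They were followed across wild-type and uri roots with and without iron. Each gene was found by an exact match of its locus identifier to the array annotation, and each had 1 probe set, so the family makes up 3 of the 22746 probe sets tested and 3 of the 21019 genes with a probe set of their own. The annotation describes all 3 probe sets as putative In2-1 proteins. The members were selected on a measured value, the much higher GSTL1 level in wild-type roots without iron. Its differences are therefore given as a description, with standard errors and 95% intervals but no p-values.

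Glutathione transferases use the tripeptide glutathione. The large tau and phi classes have a serine in the active site and mostly attach glutathione to reactive compounds. Lambda enzymes carry a cysteine in its place, as dehydroascorbate reductases do, and work as thiol transferases that remove glutathione from compounds rather than add it. Plant lambda enzymes bind flavonols such as quercetin and reduce their glutathione conjugates back to the free flavonol, and they are related to the In2-1 protein of maize, which herbicide safeners induce. GSTL2 carries a plastid targeting sequence, and GSTL1 and GSTL3 are regarded as cytosolic.

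Roots came from wild-type plants or from uri plants, whose mutation lies in URI, the gene of a basic helix-loop-helix factor of the iron-deficiency response. The labels give neither the allele nor the number of lines. All plants grew for 14 days on diluted Gamborg B5 medium and then spent 3 days on agar medium with 50 µM Fe(III)-EDTA (+Fe) or with 300 µM of the iron chelator ferrozine (−Fe). Each of the 4 groups had 2 biological replicates on 1 array each, and these 8 arrays limit the precision of every value.

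Values are array intensities after robust multi-array averaging (RMA) by the authors. Array medians lay between 119.09 and 128.06, and replicates of a group correlated at r from 0.9938 to 0.9978 across probe sets. The URI transcript was at log2 8.73 and 8.78 in wild type +Fe and at 7.84 and 7.64 in uri +Fe, but without iron it was at 8.64 and 8.60 in wild type and, on arrays labelled uri, at 8.52 and 8.62. It thus separated the genotypes with iron (log2 difference −1.02 ± 0.118, limma adjusted p = 0.000752) and not without (adjusted p = 0.804), so for −Fe arrays the uri genotype is known from labels alone. The titles of the −Fe arrays carry one series of running numbers and those of the +Fe arrays another, and what those numbers stand for cannot be told apart from iron supply. IRT1, the main root iron importer, was higher without iron in both genotypes (log2 difference 6.57 ± 0.193 in wild type and 4.48 ± 0.193 in uri), and the ferritin gene FER1 was lower (−1.92 ± 0.122 and −1.81 ± 0.122). All 12 root markers were at log2 6.27 or above on every array, and the 11 measured photosynthesis genes, taken as shoot markers, were at 6.42 or above. The summed shoot-marker intensity was 7550 and 7030 on the arrays labelled uri −Fe, against 3060 to 5210 on the other 6. The summed root-marker intensity was 15900 and 15500 there, 23200 and 23500 in wild type −Fe, and 16400 to 19400 on the +Fe arrays. Root markers themselves differed with iron at a limma adjusted p under 0.05. In wild type 2 of the 12 were higher without iron, IRT2 (log2 difference 2.43) and TIP2;3 (0.59), and in uri 1 was higher and 5 lower. Over all probe sets 3.51% were higher in wild type, and 15.1% higher and 18% lower in uri. The root-marker sum thus also carries iron responses of its own genes. Of the 11 shoot markers, 0 were higher and 9 lower without iron in wild type, and 6 were higher and 0 lower in uri. Over all probe sets 2.14% were lower in wild type. The shoot-marker sum is therefore not a measure of tissue content alone either. In whole roots, a change in the number of cells of a type and a change in RNA per cell cannot be told apart.

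GSTL1 was dim with iron and bright without it. In wild type +Fe its intensity was 58.3 and 53.1, and in uri +Fe it was 62.8 and 40.6. In wild type −Fe it was 3374 and 3269. On the arrays labelled uri −Fe it was 342 and 267. The 2 wild-type −Fe arrays stood above every other array, the uri −Fe arrays lay between them and the +Fe arrays, and the 2 +Fe groups overlapped. The order of the group means was therefore wild type −Fe (log2 11.70, SD 0.0323), uri −Fe (8.24, SD 0.253), wild type +Fe (5.80, SD 0.0954) and uri +Fe (5.66, SD 0.446), and only the last pair of neighbours in that order did not differ beyond its spread. Replicates of a group differed by 1.03-fold to 1.55-fold, the widest pair being uri +Fe.

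GSTL2, the plastid member, varied little. Its intensity was 130 and 124 in wild type +Fe, 121.8 and 120.3 in wild type −Fe, and 119 and 121 in uri +Fe. On the arrays labelled uri −Fe it was 156 and 175. Those 2 arrays were above all other 6, which lay within 1.09-fold of each other. The mean log2 level was 7.37 in uri −Fe, 6.99 in wild type +Fe, 6.92 in wild type −Fe and 6.91 in uri +Fe.

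GSTL3, which lies directly next to GSTL1 in the genome, was measured at 203 and 269 in wild type +Fe and at 263 and 351 in wild type −Fe. In uri +Fe it was 252 and 188, and in uri −Fe it was 263 and 239. Replicates differed by 1.10-fold to 1.35-fold, about as much as the groups did. The mean log2 levels ran from 8.25 in wild type −Fe through 7.97 in uri −Fe and 7.87 in wild type +Fe to 7.77 in uri +Fe. No neighbours in that order differed beyond the spread of the replicates, although the lower wild-type −Fe array was just above the higher uri −Fe array.

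**Figure D1:**
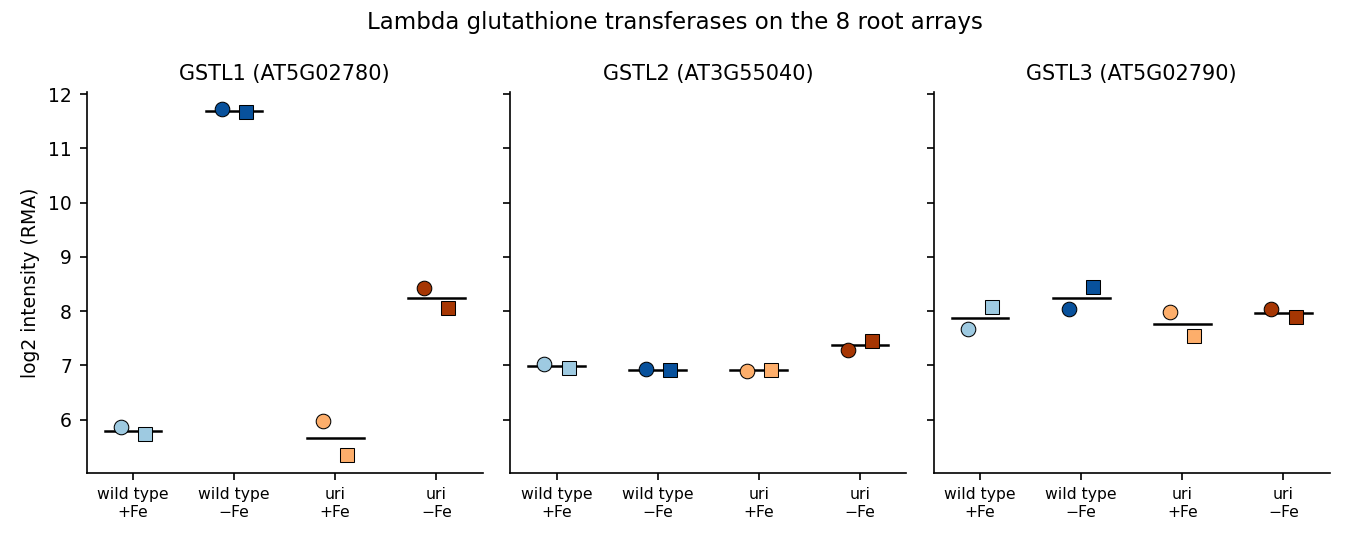
Log2 RMA intensity of GSTL1, GSTL2 and GSTL3 on each of the 8 root arrays, by genotype and iron supply. Circles are replicate 1, squares replicate 2 and bars the group means. GSTL1 ranges over 6.38 log2 units, GSTL3 over 0.90 and GSTL2 over 0.55. Heights of different probe sets are not comparable.

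Over the 8 arrays GSTL1 spanned 83.2-fold, GSTL3 1.87-fold and GSTL2 1.47-fold. The residual SD of log2 values within groups was 0.261 for GSTL1, 0.259 for GSTL3 and 0.0647 for GSTL2, so GSTL3 was as variable between replicates as GSTL1 without its differences between groups. The 3 genes did not vary as a unit. Pearson's r over the 8 arrays was 0.706 between GSTL1 and GSTL3, 0.019 between GSTL1 and GSTL2 and −0.0982 between GSTL2 and GSTL3, with the same 8 arrays behind each value.

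In wild type, GSTL1 was 59.6-fold higher without iron than with it (log2 difference 5.90 ± 0.184, 95% interval 5.50 to 6.30). Single −Fe arrays exceeded single +Fe arrays by 56-fold to 63.5-fold. Only 2 of the 22746 probe sets had a larger positive difference. This is the contrast that the choice of the family used. GSTL3 differed by 0.38 ± 0.183 (interval −0.02 to 0.77), and its arrays overlapped. GSTL2 differed by −0.07 ± 0.114 (interval −0.32 to 0.18). Over all probe sets 5.65% passed an adjusted p of 0.05 (3.51% higher and 2.14% lower). GSTL1 was past that threshold by the choice of the family, from which nothing is read, and GSTL2 and GSTL3 were not past it.

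In uri, GSTL1 was 5.99-fold higher without iron (log2 difference 2.58 ± 0.184, interval 2.18 to 2.98), with 4.26-fold to 8.44-fold between single arrays. On the log2 scale this was 43.8% of the difference in wild type. GSTL2, which did not pass in wild type, was 1.37-fold higher (0.46 ± 0.114, interval 0.21 to 0.71). Its arrays did not overlap, but in wild type they did not overlap either, at a difference of −0.07. The share of all probe sets without overlap was not counted, so nothing is read from this. GSTL3 differed by 0.20 ± 0.183 (interval −0.20 to 0.60), with overlapping arrays. The values of GSTL1 and GSTL2 lay past the threshold in uri, as did 33.1% of all probe sets (15.1% higher and 18% lower). Without the second uri −Fe array GSTL2 no longer passed, with a difference of 0.38.

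Without iron, GSTL1 was 11-fold lower in uri than in wild type (log2 difference −3.46 ± 0.184, interval −3.86 to −3.06). Single arrays differed by 9.55-fold to 12.6-fold, and the mean intensity in uri −Fe was 9.18% of that in wild type −Fe. Only 8 probe sets had a more negative difference. GSTL2 lay on the other side and was 1.37-fold higher in uri (0.45 ± 0.114, interval 0.20 to 0.70). GSTL3 differed by −0.28 ± 0.183 (interval −0.68 to 0.12). Over all probe sets 26.6% passed the threshold (12.2% higher and 14.4% lower), and GSTL2 was among them. For GSTL1 this comparison contains the wild-type −Fe values that chose the family, so its place past the threshold is no test. GSTL2 no longer passed without the second uri −Fe array or without either wild-type −Fe array, and its difference over the fits that leave out 1 array was 0.37 to 0.53.

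With iron, none of the 3 passed the threshold in the comparison of uri with wild type, which 3.12% of all probe sets passed (1.34% higher and 1.78% lower). The log2 differences were −0.14 ± 0.184 for GSTL1 (interval −0.54 to 0.26), −0.08 ± 0.114 for GSTL2 (interval −0.33 to 0.17) and −0.10 ± 0.183 for GSTL3 (interval −0.50 to 0.29). The GSTL1 value rested on the second uri +Fe array, at 40.6. Without it the difference was 0.17.

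The iron response itself differed between the genotypes by −3.32 ± 0.26 on the log2 scale for GSTL1 (interval −3.88 to −2.75), which is a 9.95-fold smaller ratio of −Fe to +Fe in uri. Only 9 probe sets had a more negative value. For GSTL2 it differed by 0.53 ± 0.162 in the other direction (interval 0.18 to 0.88), and for GSTL3 by −0.17 ± 0.259 (interval −0.74 to 0.39). Over all probe sets 20.4% passed the threshold (9.6% higher and 10.8% lower), and GSTL2 was among them. The GSTL1 value contains the wild-type iron difference that chose the family and is no test. GSTL2 no longer passed when either wild-type −Fe array, the second uri −Fe array, either wild-type +Fe array or the first uri +Fe array was left out, and its value then ran from 0.45 to 0.57. These 5 comparisons share arrays: the −Fe wild-type arrays, for example, enter 3 of them.

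**Figure D2:**
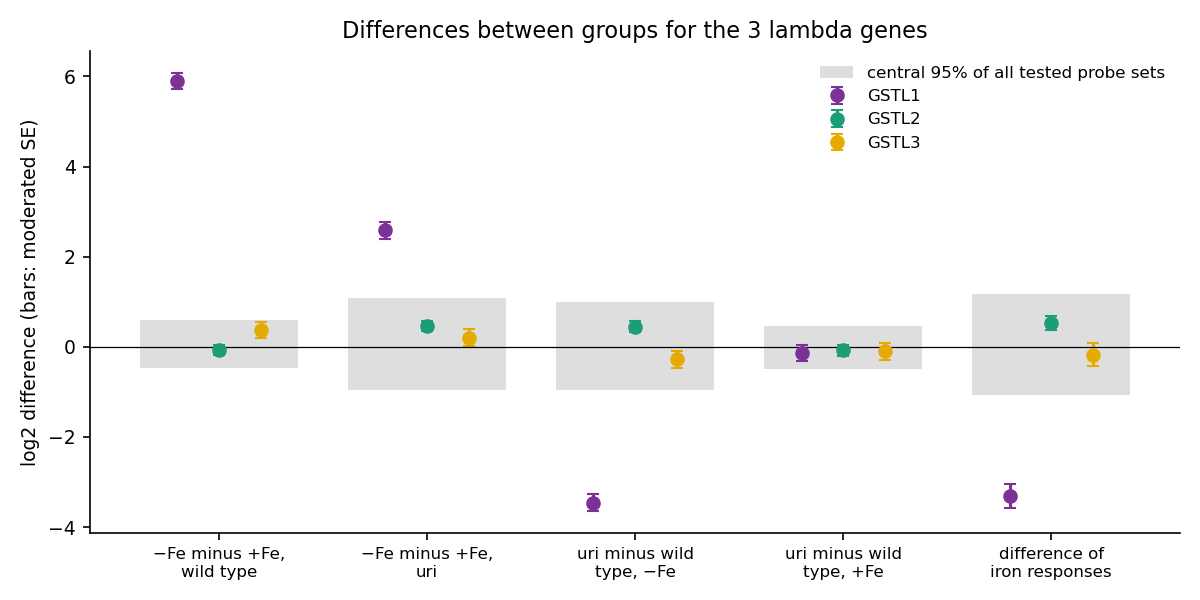
Log2 differences of the 3 lambda genes in the 5 comparisons, with moderated standard errors as bars. Grey boxes span the central 95% of all 22746 tested probe sets. GSTL1 lies outside the box in each comparison but uri against wild type with iron, and GSTL2 and GSTL3 lie inside it in all 5.

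The GSTL2 level moved with the shoot markers. Its r with the log2 summed shoot-marker intensity was 0.816 over the 8 arrays, and with the root-marker sum it was −0.694. For GSTL1 the values were −0.477 and 0.597, and for GSTL3 they were −0.32 and 0.589. Both sums include genes that differ with iron themselves, such as IRT2 in the root-marker sum. The r values with either sum are therefore not a measure of tissue content alone. All 11 measured shoot markers were higher in uri than in wild type without iron, and 7 of the 12 root markers were lower, beside 12.2% higher and 14.4% lower over all probe sets. The part of these markers in the GSTL2 difference was not tested. In wild type, 9 of the 11 shoot markers were lower without iron (fewer without the second wild-type −Fe array), beside 2.14% of all probe sets, and GSTL2 differed by −0.07.

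The genes whose pattern over the 8 arrays was most like that of GSTL1 were looked for among 3026 probe sets that vary by at least 1 log2 unit. The closest was IREG2 (AT5G03570, r = 0.9972), which encodes a vacuolar metal transporter of the ferroportin family. Its log2 intensity was 8.76 and 8.74 in wild type +Fe, 11.39 and 11.35 in wild type −Fe, 8.59 and 8.44 in uri +Fe, and 9.95 and 9.83 in uri −Fe. The order of its groups was that of GSTL1, as its choice by likeness implies, and its range was smaller. Next came AT3G07720, a kelch-repeat protein (r = 0.9947), and AT5G59680, a putative leucine-rich repeat kinase (r = 0.9944). They were followed by bHLH39, a factor that pairs with FIT to activate iron uptake genes (r = 0.9936), and by MTPA2, a zinc transporter of the vacuolar membrane also called MTP3 (r = 0.9927). The last 3 of the 8 were AT3G61930, of unknown function (r = 0.9889), the RING-finger gene AT1G72220 (r = 0.9883) and PUB23, a U-box ubiquitin ligase (r = 0.9865).

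The sizes of these genes' iron differences were unequal. That they were smaller in uri is implied by the choice by likeness to GSTL1, whose values chose the family. In wild type the log2 difference was 5.67 ± 0.117 for bHLH39, 4.68 ± 0.259 for AT3G61930, 4.51 ± 0.138 for AT3G07720, 4.06 ± 0.131 for MTPA2 and 2.62 ± 0.116 for IREG2. In uri the same genes differed by 2.10, 1.70, 1.76, 1.95 and 1.38. AT5G59680, PUB23 and AT1G72220 differed by 1.96, 1.53 and 0.97 in wild type and by 0.84, 0.49 and 0.35 in uri. The bHLH39 probe set was below the lower quartile of all values in both +Fe groups, so its fold rests on dim +Fe values. Likeness over 8 arrays in 4 groups mostly ranks the group means, and between 4 and 8 of the 8 genes were named again under the other settings tried, with 4 when the first wild-type +Fe array was left out. IRT1 itself had r = 0.958 with GSTL1.

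The patterns most opposite to GSTL1 were those of PAP17, an acid phosphatase of phosphate-starved roots (r = −0.9639), of FER4, a ferritin gene (r = −0.9605), and of the scarecrow-family gene AT3G13840 (r = −0.9493). PAP17 was 2.83-fold lower without iron in wild type and 1.34-fold lower in uri, as its choice by likeness implies. For FER4 the differences were −0.95 ± 0.114 and −0.71 ± 0.114.

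**Figure D3:**
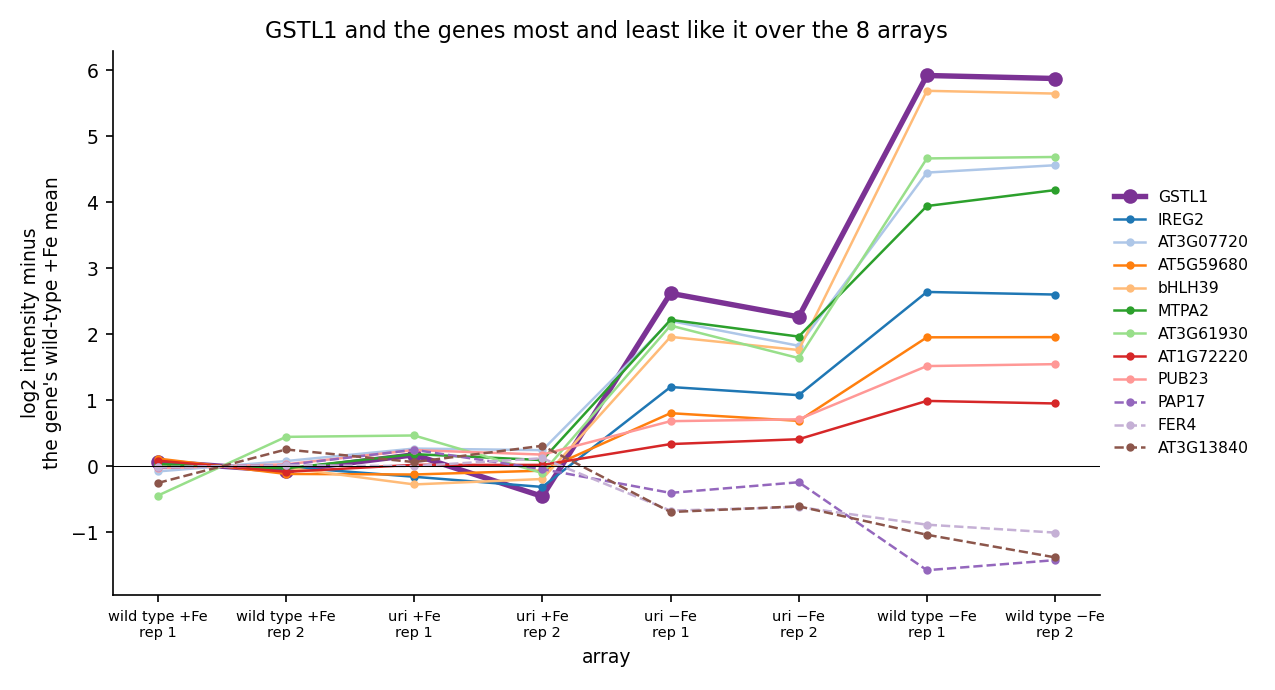
Log2 intensity of GSTL1, of the 8 genes most like it (solid) and of the 3 least like it (dashed), each relative to its own mean in wild type +Fe, on the 8 arrays. Lines only join the values of a gene. GSTL1 and bHLH39 reach 5.90 and 5.67 in wild type −Fe, and in uri −Fe they reach less.

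GSTL2 had other company. The genes most like it were AT1G23840, of unknown function (r = 0.9887), AT5G49690, of the UDP-glycosyltransferase family (r = 0.988), AT2G38240, an oxygenase that depends on 2-oxoglutarate and iron (r = 0.9869), and AT1G01770, of unknown function (r = 0.986). By this choice they share the GSTL2 pattern, and AT2G38240 was 4.34-fold higher in uri −Fe than in wild type −Fe (log2 difference 2.12 ± 0.147). In wild type their iron differences were between −0.35 and −0.16. AT5G49690 was below the lower quartile in 3 of the 4 groups. Of these 4 genes, 0 to 3 were named again under the other settings, with 0 under quantile normalization.

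For GSTL3 no gene came as close. The 4 highest values were 0.9133 for UCC1, a blue copper protein, 0.9053 for AT1G76220, 0.8984 for AT3G11690 and 0.8893 for AT5G61260. Of these 4 genes, 1 to 4 were named again under the other settings.

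Among the other classes of glutathione transferases, the highest measured iron difference was 1.38 in wild type and 1.01 in uri. GSTL1 was above both, but the family was chosen by its wild-type difference, so setting it beside them is no test. Of 51 such genes, 44 had a probe set of their own, and in wild type 3 were higher without iron and 0 lower, beside 3.51% and 2.14% of all probe sets. Their median log2 difference was 0.10, and that of all probe sets was −0.03. All 3 were of the tau class. GSTU24, which conjugates the explosive TNT in Arabidopsis, was at log2 7.40 and 7.45 with iron and 8.85 and 8.76 without, 2.6-fold higher (1.38 ± 0.137, adjusted p = 5.8e-05). GSTU9 was at 8.19 and 8.14 with iron and 9.12 and 9.07 without (0.93 ± 0.109, adjusted p = 0.000241). GSTU17, known from light and drought responses, was higher by 0.57 ± 0.146 (adjusted p = 0.0385), a call lost without either wild-type −Fe array or the first wild-type +Fe array.

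In uri the tau class split. Of its 28 genes, 12 were higher without iron and 9 lower, beside 15.1% and 18% of all probe sets, with a median of 0.15 beside −0.01. The 12 became fewer without either uri −Fe array or the second uri +Fe array. The 9 became fewer without the first uri −Fe array. Calls over all probe sets in those fits are not given here, so no loss particular to the class is read. GSTU20, which binds the jasmonate-conjugating enzyme FIN219, was at 9.43 and 9.12 in uri +Fe and at 7.88 and 7.77 in uri −Fe (−1.45 ± 0.138, adjusted p = 9.15e-06). GSTU17 fell by 1.28 on the log2 scale (adjusted p = 3.64e-05), opposite to its wild-type difference. GSTU16 rose by 0.83 ± 0.133 (adjusted p = 0.000481).

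Of the 9 measured phi genes, 5 fell and 0 rose without iron in uri, where 18% and 15.1% of all probe sets did. In wild type 0 of the 9 passed, beside 5.65% of all probe sets. GSTF13 was at 8.21 and 8.42 in uri +Fe and 6.79 and 7.13 in uri −Fe (−1.36 ± 0.146, adjusted p = 2.36e-05). GSTF14 fell by 0.80 (adjusted p = 0.000213), and GSTF11, associated with glucosinolate synthesis, fell by 0.78 (adjusted p = 0.000831). GSTF12, needed to carry anthocyanins to the vacuole, fell by 0.96 (adjusted p = 0.000105) but was below the lower quartile of all values in 3 of the 4 groups. Among 5 measured theta, zeta and microsomal genes, 1 rose in uri and 0 fell, beside 15.1% and 18% of all probe sets. It was GSTZ1, an isomerase of tyrosine breakdown (0.66 ± 0.121, adjusted p = 0.00109). The 2 measured dehydroascorbate reductases, which share the active-site cysteine with the lambda class, passed in none of the 5 comparisons, although 1 of them passed for iron in wild type without the second wild-type +Fe array, and 1 for iron in uri without the first uri +Fe array or under median centring.

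**Figure D4:**
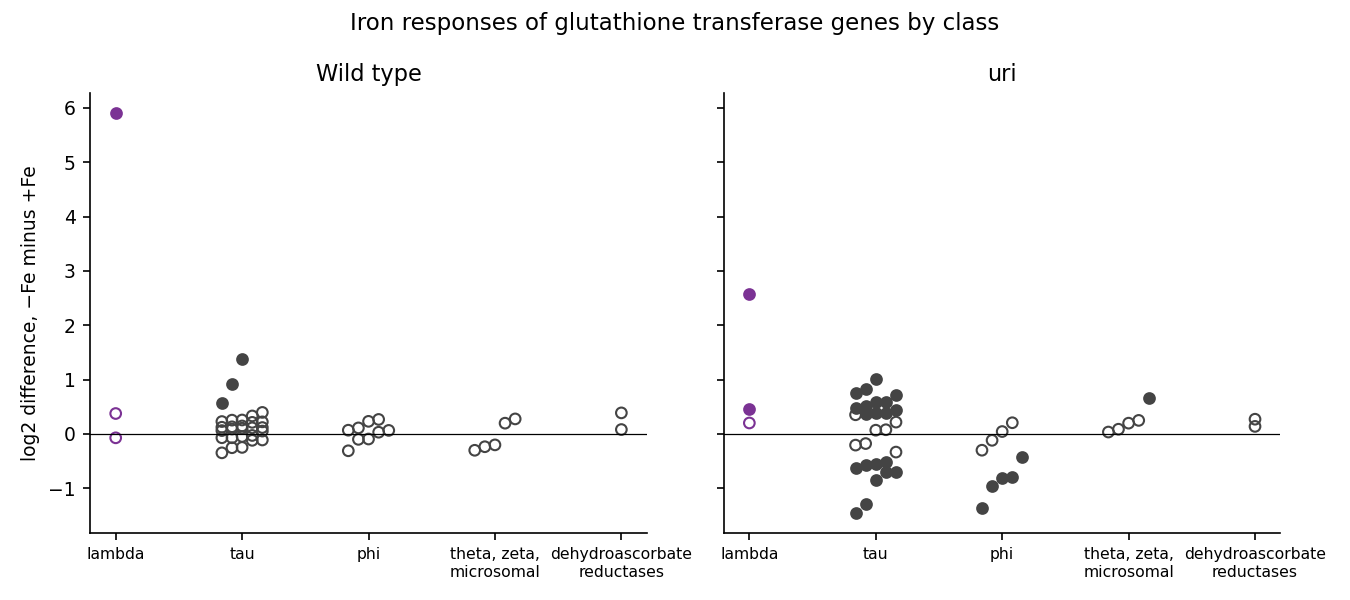
Log2 differences without minus with iron for glutathione transferase genes by class, in wild type (left) and uri (right), 1 point per gene. Filled points passed an adjusted p of 0.05. Outside the lambda class the highest value is 1.38 in wild type and 1.01 in uri. The lambda class was chosen by its GSTL1 value in wild type.

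Between the genotypes without iron, 11 of 28 tau genes were higher in uri and 5 lower, and 4 of 9 phi genes were lower, beside 12.2% higher and 14.4% lower over all probe sets. The calls of GSTU1, GSTU8, GSTU17, GSTU19, GSTU27 and GSTF4 among these were lost without the first uri −Fe array. GSTU5 was 3.79-fold higher in uri (log2 difference 1.92 ± 0.245, adjusted p = 9.53e-05), GSTU16 2.1-fold (adjusted p = 7.97e-05) and GSTU2 2.03-fold (adjusted p = 0.000654). GSTU20 was lower in uri (−1.22 ± 0.138, adjusted p = 3.6e-05), as was GSTU9 (−0.61 ± 0.109, adjusted p = 0.0012). With iron, 8 tau genes were higher in uri and 0 lower, beside 1.34% and 1.78% of all probe sets, with a median of 0.35 beside 0.01. That count was smaller without the first wild-type +Fe array, either wild-type −Fe array, either uri −Fe array or the first uri +Fe array. Calls over all probe sets also changed between such fits, as given below. GSTU17 was 2.27-fold higher there (adjusted p = 0.00116) and GSTU24 1.97-fold (adjusted p = 0.0027). Of the 28 tau genes, 6 had a lower iron response in uri than in wild type and 2 a higher one, and of the 9 phi genes 4 had a lower one, beside 10.8% lower and 9.6% higher over all probe sets. Among the 6, the calls of GSTU18, GSTU24 and GSTU28 were lost without the first uri −Fe array. The count of 2 was smaller without either wild-type −Fe array, either uri −Fe array or the first wild-type +Fe array. It was larger without the first uri +Fe array.

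Of 10 genes of glutathione synthesis and turnover, 1 was higher without iron in wild type and 2 were lower in uri, beside 3.51% and 18% of all probe sets. GR1, a glutathione reductase, was the wild-type gene (0.53 ± 0.117, adjusted p = 0.0188), but the call was lost when any 1 of the 4 wild-type arrays was left out. In uri, GR1 went from 11.54 and 11.53 with iron to 10.96 and 10.81 without (−0.65 ± 0.117, adjusted p = 0.001), and its iron response differed by −1.18 ± 0.165 between the genotypes (adjusted p = 0.000348). With iron GR1 was already higher in uri than in wild type (0.80 ± 0.117, limma adjusted p = 0.0034). Without iron it was lower in uri (−0.38 ± 0.117, limma adjusted p = 0.0307), a call lost under median centring. CLT1, a plastid thiol transporter, was the other gene that fell in uri (adjusted p = 0.0283), a call lost without the first uri −Fe or the second uri +Fe array and under median centring. Of 8 ascorbate recycling genes, 1 was higher without iron in wild type and 1 was lower in uri, beside the same 3.51% and 18%. MDAR1, a monodehydroascorbate reductase, was the wild-type gene. It rose from 10.20 and 10.17 to 11.20 and 11.14 (0.99 ± 0.122, adjusted p = 0.000343). Its uri difference was 0.25 ± 0.122 and did not pass. MDAR6 fell in uri (−0.73 ± 0.135, adjusted p = 0.00128). Of 3 measured ABCC pumps, which move glutathione conjugates into the vacuole, 2 fell in uri, beside 18% of all probe sets. These were ABCC2 and ABCC4 (−0.63 ± 0.117 and −0.72 ± 0.137, adjusted p = 0.00131 and 0.00138). None of the 3 passed in wild type, where 5.65% of all probe sets did.

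Several, but not all, of the genes that make flavonols, the compounds that lambda enzymes bind, changed in opposite directions in the genotypes. Of 10 measured, 6 were higher without iron in wild type and 0 lower, with a median of 0.99, beside 3.51% and 2.14% of all probe sets. In uri 0 were higher and 7 lower, with a median of −1.03, beside 15.1% and 18%. FLS1, the main flavonol synthase, was at 9.47 and 9.45 in wild type +Fe, 10.99 and 11.03 in wild type −Fe, 11.35 and 11.55 in uri +Fe, and 9.68 and 9.99 in uri −Fe. Its highest arrays were thus those of uri with iron, where GSTL1 was dim. The FLS1 iron difference was 1.55 ± 0.131 in wild type (adjusted p = 1.35e-05) and −1.61 ± 0.131 in uri (adjusted p = 2.6e-06). Chalcone isomerase (CHI) differed by 1.65 and −1.36, and the flavonoid hydroxylase F3'H by 1.49 and −1.43. MYB12, a factor that activates flavonol genes, rose in wild type (1.10 ± 0.147, adjusted p = 0.000652) and differed by −0.21 ± 0.147 in uri. With iron, 8 of the 10 were higher in uri than in wild type and 0 lower, beside 1.34% and 1.78% of all probe sets. The GSTL1 differences were positive in both genotypes, and with iron its groups overlapped.

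GSTL1 and GSTL3 are direct neighbours in the RefSeq gene table, and GSTL2 lies on another chromosome. Of the 12 protein-coding genes flanking them, 3 on each side, 11 were measured, and their iron differences in wild type ran from −0.40 to 0.35, with 0 past the threshold that 5.65% of all probe sets passed. In uri 4 of the 11 passed, beside 33.1% of all probe sets. PRR7, a component of the circadian clock, rose by 1.28 ± 0.117 (adjusted p = 6.62e-06), and the kinase gene CDL1 rose by 0.69 ± 0.146 (adjusted p = 0.00295). PUR5, of purine synthesis, fell by 0.93 (adjusted p = 7.69e-05), and PGPS2, of phosphatidylglycerol synthesis, fell by 0.45 (adjusted p = 0.01, lost without the second uri −Fe array). MOS11, the gene next to GSTL1 on its other side, differed by 0.03 ± 0.138 in wild type. Whether the GSTL1 and GSTL3 probe sets share hybridising transcript was not tested. On the wild-type −Fe arrays, where GSTL1 was brightest, GSTL3 was 1.3-fold above its wild-type +Fe level.

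**Figure D5:**
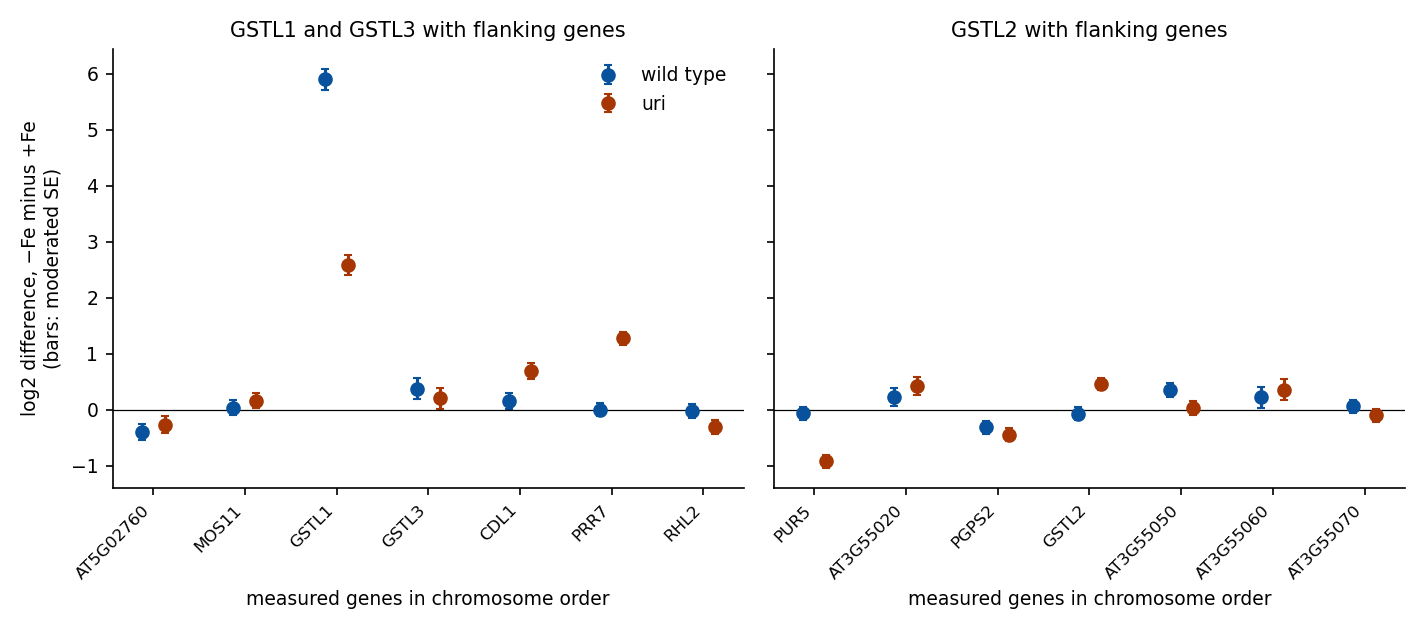
Log2 differences without minus with iron for the measured genes flanking GSTL1 and GSTL3 (left) and GSTL2 (right), in chromosome order with equal spacing, with moderated standard errors. The 11 flanking genes lie between −0.40 and 0.35 in wild type, and PRR7 reaches 1.28 in uri.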

How the data were processed

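Total RNA of 8 Arabidopsis root samples was hybridised to 1-colour Affymetrix arrays, per the labels' protocols. The deposited values are intensities made by the authors with RMA, per the submitters' processing notes; the version is not given in the sources used here. They are on a linear scale, and log2 was taken here from these deposited values before any test. The deposited tables differed by at most 5e-06. The annotation was joined through its own probe-set column, because 44 lines carry another identifier. Of 22810 probe sets, 64 controls were left out. The annotation gave 1 gene for 21180 of the rest, several for 1039 and none for 527, and a gene was named only from the first kind, by its brightest probe set.

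One limma model (limma 3.58.1, R 4.3.3; lmFit and eBayes) with a mean per group was fitted to all 8 arrays, with 4 residual and 8.32 prior degrees of freedom, and checked on simulated data. P-values were adjusted by Benjamini-Hochberg over all 22746 probe sets of a comparison and called under 0.05. The labels call the replicates biological and say no more of their origin. Whether the replicate numbers pair the samples is not known, and the main model did not pair them. Correlations of same-numbered deviations were 0.139 in wild type and 0.155 in uri. Between the genotypes they were negative, from −0.223 to −0.0321. Members and gene lists were chosen with earlier results of these data known. Named genes were the members, the 8, 4 and 4 genes most like GSTL1, GSTL2 and GSTL3 and the 3 least like GSTL1, up to 4 called genes of each list and comparison with the largest differences, the flanking genes, and URI, IRT1 and FER1. GSTF2, GSTF3, GSTF6, GSTF7, GSTT3, DHAR1, ABCC3, UGT73C6 and RBCS1A had only probe sets shared with other genes. RefSeq names and gene order came from TAIR10.1. The alternatives were median centring, quantile normalization, an offset of 16 before the log and leaving out dim probe sets. Further ones were a replicate block, the second copy of the deposited values, fitting only the groups compared, and leaving out each array.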

Additional observations from a re-analysis of the deposited data

Results flagged for a closer look

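The iron response differed between uri and wild type for GSTL1 by −3.32 on the log2 scale (−3.315), with both genotypes higher without iron, a value that contains the difference by which the family was chosen. For GSTL2 the difference was 0.53, and every array of wild type without iron was below those with iron while every array of uri without iron was above those with iron. The wild-type gap in GSTL2 was small, 1.02-fold to 1.08-fold between single arrays. Its log2 difference there was −0.07 ± 0.114 (interval −0.32 to 0.18), and 71.4% of all probe sets had a larger one in size. The share of all probe sets whose arrays separate in this way was not counted. Whether the GSTL2 value of 0.53 passed the threshold depended on single arrays, as given above.

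By the limma test of the difference between genotypes, 10 of the 44 other measured glutathione transferases had a lower iron response in uri. A higher one was seen for 2, beside 10.8% lower and 9.6% higher over all probe sets. The differences flagged were −1.86 for GSTU17, −1.85 for GSTU20, −1.05 for GSTF11, −1.05 for GSTF13, −0.87 for GSTF12 and −0.86 for GSTU9. Their limma adjusted p ran from 3.82e-05 for GSTU20 to 0.00449 for GSTF12. These are the 6 largest in size of the 12 that passed. No group had enough arrays to test for a single outlying array.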

How the results depend on the processing

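Of 222 alternative values of the 3 lambda genes' differences, 207 moved by less than the gene's residual SD, and no GSTL1 or GSTL3 value changed its side of the threshold. Many of the 222 could not move. A replicate block, the second copy of the values, leaving out dim probe sets and fitting only the groups compared return the same difference by construction. So does leaving out an array outside the comparison. The 207 is therefore no measure of how stable the differences are. With an offset of 16 the GSTL1 iron difference became 5.54 in wild type and 2.25 in uri. Leaving out 1 array gave, for GSTL1, 2.27 to 2.90 for iron in uri, −0.46 to 0.17 for uri against wild type with iron, and −3.63 to −2.9999 for the difference of iron responses. For GSTL2 it gave 0.38 to 0.54 for iron in uri, 0.37 to 0.53 for uri against wild type without iron, and 0.45 to 0.61 (0.447 to 0.613) for the difference of iron responses. Median centring moved the GSTL2 iron difference in uri to 0.53. Among the 44 other glutathione transferases, leaving out 1 array gave 7 to 13 higher and 9 to 14 lower for iron in uri, 3 to 7 higher in uri with iron, and 0 to 4 with a higher iron response in uri. Calls over all probe sets ran from 435 to 1729 for iron in wild type (1285 with all arrays), from 3609 to 6833 for uri against wild type without iron (6057), from 179 to 1379 with iron (709, and 295 when only those groups were fitted), and from 2849 to 4937 for the difference of iron responses (4637). Median centring moved no median by more than 0.0673 but turned the split of calls for iron in uri from 3434 higher and 4094 lower to 4070 and 3338, without iron between genotypes to 3227 and 2796, and for the difference of responses to 2439 and 2034. With a replicate block the calls were 1164, 7282, 5830, 610 and 4376 in the order of the 5 comparisons, and no lambda gene changed its side. With the numbers crossed in uri, chosen after seeing the data, they were 1581, 8053, 6583, 943 and 5190. The cause of these changes was not tested. Dim +Fe values limit the GSTL1 folds.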
